A study of Mus musculus with 24 samples.

Results

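The genes described here build the path by which newly made proteins enter the endoplasmic reticulum (ER), are processed and folded there, and leave it in coated vesicles. They were chosen by symbol from all measured genes: Sec, Srp or Emc followed by a number, Ssr, Spcs, Tmed or Pdia with any ending, the Cop genes of the COPI coat, and Ddost, Rpn1 and Rpn2. The rule gave 61 of the 8389 genes with a single-symbol probe. Of these, 60 were measured in the PPARδ comparison and 61 in the PPARγ comparison, since Srp54a had values in the PPARγ set only. Each gene was represented by its brightest probe, judged by the mean of the 12 arrays in its comparison. Most members are subunits of a few machines, namely the signal recognition particle, the Sec61 channel, the translocon-associated protein complex, the ER membrane protein complex, the signal peptidase, the oligosaccharyl transferase, the disulfide isomerases, the COPII and COPI coats and the p24 cargo receptors. Sec14l1, a relative of the yeast lipid transfer protein Sec14, matched by its letters only.

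Proteins destined for secretion or for membranes carry a signal sequence, which the signal recognition particle binds as it emerges from the ribosome. The ribosome then docks at the Sec61 channel, the signal peptidase removes the signal, the oligosaccharyl transferase adds sugar chains, and protein disulfide isomerases join cysteines. COPII vesicles carry cargo towards the Golgi, and COPI vesicles bring escaped residents and cargo receptors back. Adipocytes use this route for adiponectin and other hormones, for lipoprotein lipase and for their collagen-rich matrix.

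The cells were 3T3-L1 adipocytes, a clonal mouse fibroblast line that turns into adipocytes after induction with dexamethasone, isobutylmethylxanthine and insulin. From day 11 after induction, flasks received GW610742, a selective agonist of the nuclear receptor PPARδ (labelled dose 1 μM), GW347845, a selective agonist of PPARγ (labelled dose 100 μM), or the solvent DMSO for 2 days, all in medium with serum and insulin. There were 6 arrays per treatment. The methods name a pair of doses for each agonist, those of GW347845 below the labelled one, without saying which one the arrayed flasks received, so agonist and dose cannot be told apart. RNA was hybridized to Illumina bead arrays, and each agonist was normalized with the same 6 DMSO hybridizations, which therefore have 2 sets of values. The values are on a log2 scale on which a difference of 1 is about a doubling, and low signals are compressed on it. A gene was counted as changed where the moderated test of limma gave an adjusted p under 0.05 over all probes of the comparison. The sources speak of independent hybridizations and do not say whether the flasks were separate cultures or days, and a p therefore covers the variation among arrays only, with a precision set by how few there are. In whole cultures, fewer cells of a type and less RNA per cell cannot be told apart.

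The label was checked against adipocyte genes. Adipoq, the adiponectin gene, had values of 12.05 to 14.12 (median 13.36) in PPARγ agonist arrays and 12.40 to 13.58 (median 12.84) in DMSO arrays, in the upper part of the range of 6.25 to 14.76, whereas the Fabp4 probe read 6.40 to 7.49 (median 6.87) in PPARγ agonist arrays and 6.32 to 6.47 (median 6.38) in DMSO arrays, near its lower end. Dlk1, on the preadipocyte list, read 14.36 to 14.47 in PPARγ agonist arrays and 14.27 to 14.45 in DMSO arrays, near the upper end of that range. Of the other adipocyte markers, Lpl read 14.04 to 14.69 in PPARγ agonist arrays, whereas Lep read 6.61 to 7.26 and Slc2a4 6.56 to 7.09. What share of the cells were adipocytes was not tested. The PPARγ agonist arrays were not uniform. The mean of the 10 measured of 14 adipocyte markers was 10.01, 10.21 and 10.34 in agonist replicates 1 to 3 and 9.34, 9.12 and 8.97 in replicates 4 to 6. In the DMSO arrays, which ran from 9.01 to 9.67, a smaller split followed the same numbers. They read 9.33, 9.36 and 9.67 in replicates 1 to 3 and 9.07, 9.01 and 9.03 in replicates 4 to 6. Replicate 6 of the PPARγ agonist resembled the DMSO arrays (median r = 0.9903) slightly more than the other agonist arrays (median r = 0.9870). The results with the PPARγ agonist are therefore also given for replicates 1 to 3 and for replicates 4 to 6, a split made after these values were seen. In the PPARδ set the mean of the 8 measured adipocyte markers was 9.86 to 10.59 in agonist arrays and 9.76 to 10.58 in DMSO arrays. None of the macrophage or endothelial markers looked for was measured. Of the PPAR target genes listed, 8 of 8 measured rose with the PPARδ agonist, where 8.26% of all genes rose. With the PPARγ agonist 6 of 9 rose, where 10.2% of all genes rose, and Pdk4 fell (log2 fold change -0.32, adjusted p = 0.012). The list was chosen with earlier results of these data known, so these counts are no independent check of the treatments. Angptl4 rose with both agonists, by 0.80 with the PPARδ agonist and 0.25 with the PPARγ agonist on the log2 scale.

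Promoter sequence was available from RefSeq for 52 of the 61 members (build GRCm38.p6), as windows of 300 bases that span the start of the gene. Shown here are 3 windows of genes that fell most clearly with the PPARγ agonist (Emc7, Sec24d and Srp9) and that of Pdia6, an isomerase whose window holds the ER stress response element. Capitals mark matches, on either strand, to the CCAAT box (CCAAT), the ER stress response element (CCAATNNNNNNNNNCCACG, which contains a CCAAT box) and the element bound by the unfolded protein response factor XBP1 (TGACGTGG). The windows are at chr2:112454775-112455074, chr3:123267246-123267545, chr1:182124487-182124786 and chr12:17266339-17266638, all on the plus strand.
Emc7: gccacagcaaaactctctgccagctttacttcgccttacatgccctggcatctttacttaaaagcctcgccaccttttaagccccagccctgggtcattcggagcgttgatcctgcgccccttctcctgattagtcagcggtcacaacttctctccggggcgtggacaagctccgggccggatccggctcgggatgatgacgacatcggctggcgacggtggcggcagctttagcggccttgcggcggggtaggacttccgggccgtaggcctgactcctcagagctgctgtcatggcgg
Sec24d: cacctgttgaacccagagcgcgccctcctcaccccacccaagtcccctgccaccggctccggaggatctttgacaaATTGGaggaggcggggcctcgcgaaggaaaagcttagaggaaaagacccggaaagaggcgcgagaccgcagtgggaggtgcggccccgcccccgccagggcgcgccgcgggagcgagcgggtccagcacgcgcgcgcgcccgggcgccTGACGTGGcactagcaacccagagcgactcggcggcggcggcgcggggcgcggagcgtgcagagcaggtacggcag
Srp9: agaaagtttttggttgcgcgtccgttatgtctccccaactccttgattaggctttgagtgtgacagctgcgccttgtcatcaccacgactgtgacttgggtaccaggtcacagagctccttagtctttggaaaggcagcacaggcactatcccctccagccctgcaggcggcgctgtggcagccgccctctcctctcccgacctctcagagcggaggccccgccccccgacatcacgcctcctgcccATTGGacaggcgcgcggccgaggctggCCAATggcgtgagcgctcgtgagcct
Pdia6: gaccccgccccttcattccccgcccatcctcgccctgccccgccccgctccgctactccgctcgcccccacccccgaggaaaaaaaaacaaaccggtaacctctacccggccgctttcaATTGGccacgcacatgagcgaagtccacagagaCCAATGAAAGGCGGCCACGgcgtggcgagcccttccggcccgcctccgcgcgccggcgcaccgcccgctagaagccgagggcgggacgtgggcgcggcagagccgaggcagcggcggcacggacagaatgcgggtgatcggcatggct

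The window of Emc7 held none of these letters, Sec24d held a CCAAT box and an XBP1 element, Srp9 held a pair of CCAAT boxes near the start of the gene, and Pdia6 held the full ER stress response element. Among the members with a window, 23 of 52 (44.2%) had a CCAAT box, against 41.1% of all genes with a window. In this paragraph all genes are the 27025 genes with a window, whether measured on the arrays or not. The ER stress response element was present in Pdia6 alone (1.92% of members, 0.137% of all genes), and its second form (ATTGGNCCACG) in no member (0.0444% of all genes). The XBP1 element was found for Copb2, Sec16b, Sec23a and Sec24d (7.69% of members, 0.714% of all genes), of which only Sec24d passed the test with an agonist. Of the 10 members with a window that fell with the PPARγ agonist, 1 had the XBP1 element, 1 the ER stress response element and 6 a CCAAT box. The cyclic AMP element TGACGTCA was found for Cope and Emc10 (3.85% of members, 2.03% of all genes), and a perfect direct repeat of the PPAR type (AGGTCANAGGTCA) for Srp54a alone (1.92% of members, 0.0481% of all genes). These are matches of letters and not mapped binding sites.

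A set of these genes fell with the PPARγ agonist, and 5 passed with the PPARδ agonist. With the PPARγ agonist 13 of 61 members fell (21.3%), where 12.8% of all genes fell, and 3 rose (4.92%), where 10.2% of all genes rose. The fallen members were Emc7, Sec24d, Srp9, Srp14, Srp19, Srp72, Tmed2, Tmed4, Tmed9, Sec61b, Sec61g, Sec11c and Pdia6, and Emc8, Sec23ip and Sec24c rose. In 12 of the 61 members (19.7%, against 11.2% of all genes) the agonist and DMSO arrays did not overlap, and all 12 lay lower with the agonist. With the PPARδ agonist 3 of 60 members rose (5.00%), where 8.26% of all genes rose, namely Sec11c, Sec24d and Srp19, and 2 fell (3.33%), where 8.69% of all genes fell, namely Copz2 and Spcs3. The count of falls with the PPARδ agonist moved with the processing, to 4 with a robust prior that follows the mean (8.84% of all genes), 5 without dim probes (9.80% of all genes) and 8 of 60 when the probes of a gene were averaged (13.3%, against 9.16% of all genes). Only Sec11c and Sec24d had arrays that did not overlap (3.33% of members, 6.47% of all genes). The median log2 fold change of the members was -0.012 with the PPARγ agonist, against 0.028 over all genes, and -0.012 with the PPARδ agonist, the same as over all genes.

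Both counts with the PPARγ agonist were recomputed on parts of the arrays. With replicates 1 to 3 of agonist and DMSO, 12 of 61 members fell (19.7%, against 12.7% of all genes) and 5 rose (8.20%, against 11.4%). With replicates 4 to 6, 12 fell (19.7%, against 10.6% of all genes) and 7 rose (11.5%, against 7.83%). Of the 13 fallen members, 12 fell in the first of these fits and 11 in the second. Of the 3 risen members, 2 rose in the first and 1 in the second. Both fits reuse arrays on which the members were called, so this agreement is in part built in and is no independent check. When single arrays were left out, 12 to 14 members fell and 1 to 4 rose with the PPARγ agonist, and 1 to 4 fell and 2 to 3 rose with the PPARδ agonist. Shares of all genes were not computed for these fits. Only 1 rose without PPARγ agonist replicate 4 or DMSO replicate 1 or 3, and only 1 fell with the PPARδ agonist without its replicate 5 or DMSO replicate 1, 4 or 5. With the PPARδ agonist, replicates 1 to 3 gave 0 members past the threshold in limma (3 rose and 4 fell at an unadjusted p under 0.05), where 1.38% of all genes rose and 0.760% fell. Replicates 4 to 6 gave 2 that rose (3.33%, against 5.67% of all genes) and 3 that fell (5.00%, against 4.19%). At an unadjusted p under 0.05, with all arrays, 6 of 61 members rose (9.84%, against 19.0% of all genes) and 13 fell (21.3%, against 16.5%) with the PPARγ agonist. At that threshold 5 of 60 rose (8.33%, against 14.7% of all genes) and 10 fell (16.7%, against 17.2%) with the PPARδ agonist. Among the machines with no member past the adjusted threshold, that count was 0 for the Cop genes with the PPARγ agonist and 0 for Ddost, Rpn1 and Rpn2 and for the Sec22 genes with either. With the PPARδ agonist it was 1 rise and 2 falls for the p24 receptors, 2 falls for the isomerases, 1 rise for the ER membrane protein complex, and 1 fall each for the Sec61 channel and the translocon-associated complex, the last of which had 0 with the PPARγ agonist.

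**Figure D1:**
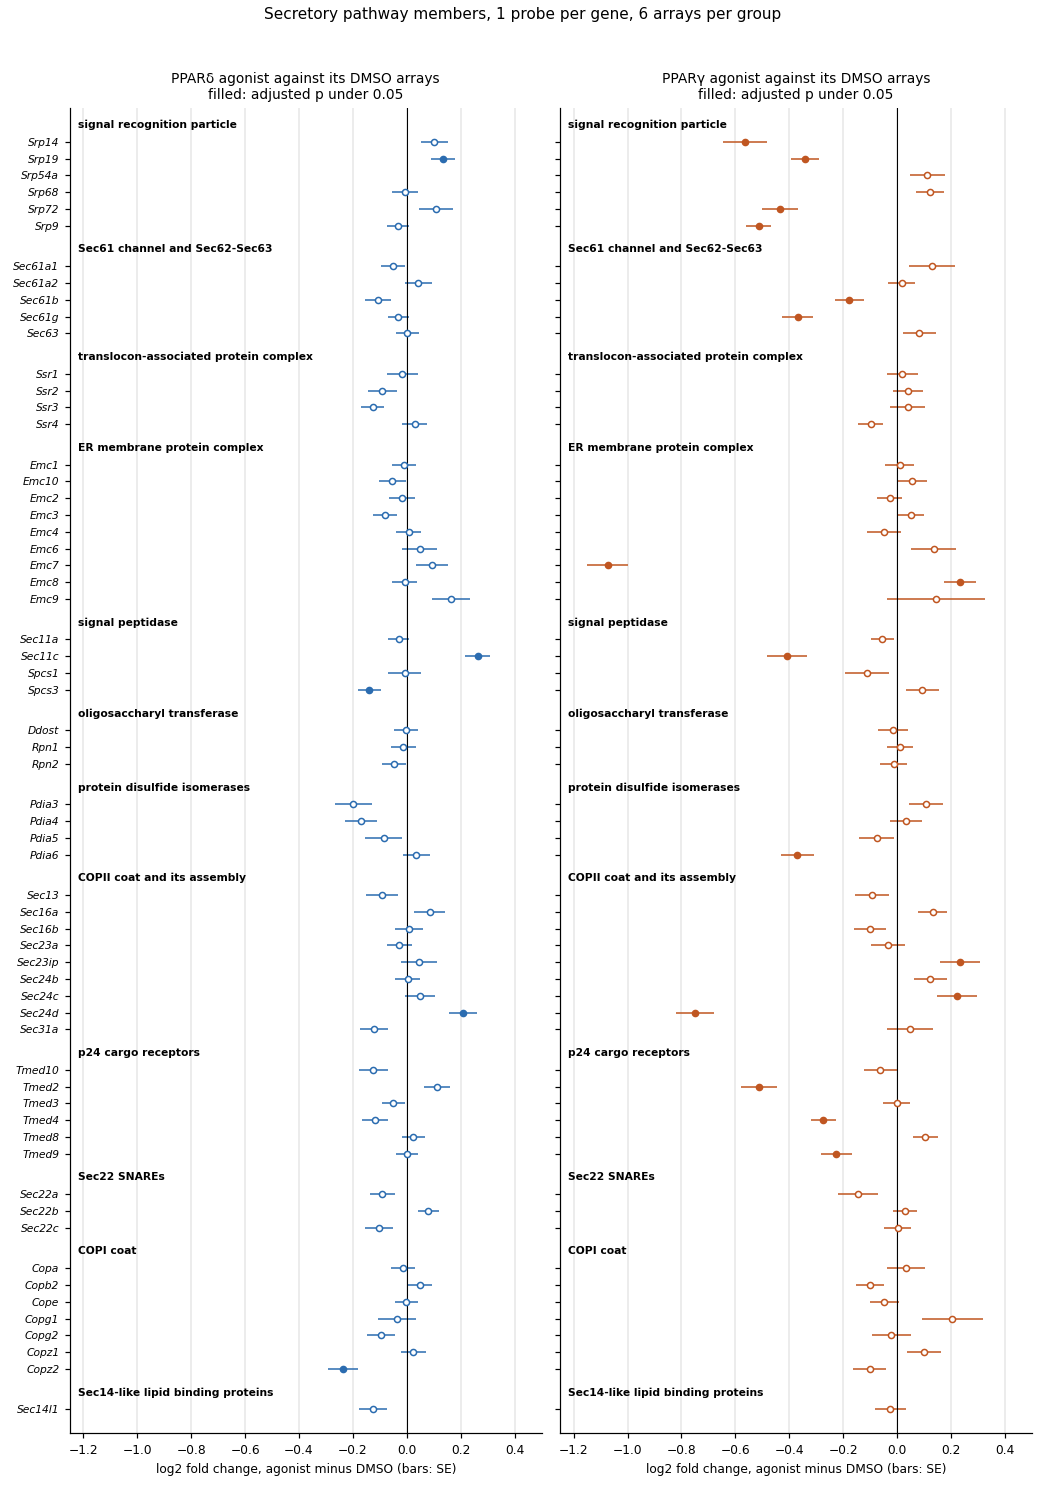
Log2 fold change (agonist minus DMSO, with its standard error) of each member, by machine, for the PPARδ agonist (left) and the PPARγ agonist (right), from 6 arrays per group. Filled points passed the test, 5 on the left, from -0.24 to 0.26, and 16 on the right, from -1.07 to 0.23.

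The signal recognition particle had the lowest median change of any machine with the PPARγ agonist (-0.39 over 6 members). Of its 6 members 4 fell, where 12.8% of all genes fell. The machines are small, and their counts were not tested against this share. Srp9 and Srp14 form a dimer that slows elongation while the ribosome is brought to the membrane. Srp9 had values of 9.08 to 9.32 (median 9.21) in PPARγ agonist arrays, against 9.66 to 9.76 (median 9.73) in DMSO arrays, a log2 fold change of -0.51 (adjusted p = 1.2e-06, standard error 0.046). Srp14 had 11.12 to 11.62 (median 11.34) in PPARγ agonist arrays and 11.81 to 12.05 (median 11.93) in DMSO arrays (log2 fold change -0.56, adjusted p = 1.3e-04). All agonist arrays of both genes lay below all DMSO arrays, and for Srp14 the agonist arrays fell into a higher trio (replicates 1 to 3, log2 fold change -0.42) and a lower trio (replicates 4 to 6, -0.71). Srp72, which holds the RNA core of the particle together with Srp68, read 7.20 to 7.60 (median 7.46) in PPARγ agonist arrays and 7.70 to 8.02 (median 7.89) in DMSO arrays (log2 fold change -0.44, adjusted p = 2.0e-04). For Srp19, which is needed to load the signal-binding subunit, the values were 7.13 to 7.40 (median 7.24) in PPARγ agonist arrays and 7.51 to 7.69 (median 7.61) in DMSO arrays (log2 fold change -0.34, adjusted p = 1.7e-04). Neither gene had overlapping arrays. Srp68, the partner of Srp72, and Srp54a, the GTPase that binds the signal sequence, did not pass the test, with log2 fold changes of 0.12 (adjusted p = 0.11) and 0.11 (adjusted p = 0.23).

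With the PPARδ agonist 1 of 5 measured members of the particle passed. Srp19 rose, with 7.81 to 7.99 (median 7.85) in PPARδ agonist arrays and 7.64 to 7.83 (median 7.75) in DMSO arrays (log2 fold change 0.13, adjusted p = 0.047). These arrays overlapped, and the highest agonist value belonged to replicate 2. Replicates 1 to 3 gave a log2 fold change of 0.21, and replicates 4 to 6 gave 0.060. The call was lost in 10 of the 12 fits that left out an array, and it was kept without agonist replicate 4 (adjusted p = 0.049) and without DMSO replicate 5 (adjusted p = 0.037). The other members lay between -0.033 (Srp9) and 0.11 (Srp72) on the log2 scale.

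In the Sec61 channel the small subunits fell with the PPARγ agonist, and the pore genes did not pass. Sec61g, the smallest of the subunits, read 12.62 to 13.05 (median 12.88) in PPARγ agonist arrays and 13.19 to 13.25 (median 13.22) in DMSO arrays (log2 fold change -0.37, adjusted p = 2.7e-04). The DMSO arrays of this gene were tight, and every agonist array lay below them. Sec61b had 10.74 to 11.01 (median 10.78) in PPARγ agonist arrays and 10.88 to 11.09 (median 10.98) in DMSO arrays (log2 fold change -0.18, adjusted p = 0.025). Agonist replicate 6, the highest of the 6, reached into the DMSO range. The call for Sec61b was lost without agonist replicate 1, 2 or 5 or without DMSO replicate 4, 5 or 6 (adjusted p = 0.050 to 0.063), but its other probe also fell (log2 fold change -0.28, adjusted p = 2.7e-04). The pore gene Sec61a1 did not pass, at 0.13 (adjusted p = 0.28), with agonist values of 9.84 to 10.44 (median 10.16) and DMSO values of 9.92 to 10.10 (median 10.01). Its paralog Sec61a2 (log2 fold change 0.017, adjusted p = 0.83) and the channel partner Sec63, which recruits the chaperone BiP (log2 fold change 0.083, adjusted p = 0.33), did not pass either.

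None of the 5 channel genes passed with the PPARδ agonist on the probe used. The largest difference was that of Sec61b, at -0.11 (adjusted p = 0.13). For Sec63 the probe used read 0.0023 (adjusted p = 0.98), whereas its other probes both rose, with log2 fold changes of 0.15 (adjusted p = 0.020 and 0.025). The translocon-associated protein complex, which helps some signal sequences open the channel, had no change past the threshold in its 4 subunits with either agonist. In the PPARγ set they ranged from -0.098 (Ssr4) to 0.040 (Ssr2), and with the PPARδ agonist from -0.13 (Ssr3) to 0.030 (Ssr4). Ssr3 lay close to the threshold with the PPARδ agonist, with 12.52 to 12.72 (median 12.64) in agonist arrays and 12.70 to 12.82 (median 12.76) in DMSO arrays (log2 fold change -0.13, adjusted p = 0.052).

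The ER membrane protein complex, an insertase for membrane proteins with several segments or a tail anchor, held the largest single change of the members with the PPARγ agonist. Emc7, a subunit with a domain in the ER lumen, read 7.18 to 7.63 (median 7.32) in PPARγ agonist arrays and 8.29 to 8.52 (median 8.46) in DMSO arrays, a log2 fold change of -1.07 (adjusted p = 2.4e-07, standard error 0.075). The groups were separated by a gap, with the change nearly the same in replicates 1 to 3 (-1.06) and 4 to 6 (-1.09). Emc7 had 1 probe. Emc8, a subunit on the cytosolic side, rose, with 9.23 to 9.62 (median 9.40) in PPARγ agonist arrays and 9.13 to 9.33 (median 9.17) in DMSO arrays (log2 fold change 0.23, adjusted p = 0.011), and its second probe rose as well (log2 fold change 0.30, adjusted p = 0.028). Only agonist replicate 6 lay within the DMSO range of Emc8.

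Emc9, the close relative that takes the place of Emc8 in the complex, did not pass (log2 fold change 0.14, adjusted p = 0.60), and its PPARγ agonist arrays were split. Replicates 1 to 3 read 9.96, 9.98 and 10.02 and replicates 4 to 6 read 9.18, 9.10 and 8.92, against 9.18 to 9.67 (median 9.37) in DMSO arrays, so that the difference was 0.55 in the first 3 replicates and -0.27 in the others. The split followed that of the adipocyte markers, and their part in the result was not tested. Emc6 did not pass (log2 fold change 0.14, adjusted p = 0.25). For Emc4 the probe used gave -0.048 (adjusted p = 0.61), but a slightly dimmer probe fell (log2 fold change -0.45, adjusted p = 1.9e-04). The other subunits, Emc1, Emc2, Emc3 and Emc10, lay between -0.028 and 0.054 on the probes used, but a dimmer probe rose for Emc3 (0.16, adjusted p = 0.034) and for Emc10 (0.15, adjusted p = 0.015). None of the 9 subunits passed with the PPARδ agonist on the probe used, though Emc3 was called on another probe. Emc7 stood at 0.094 (adjusted p = 0.28), with 8.55 to 8.88 (median 8.70) in agonist arrays and 8.46 to 8.69 (median 8.63) in DMSO arrays.

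**Figure D2:**
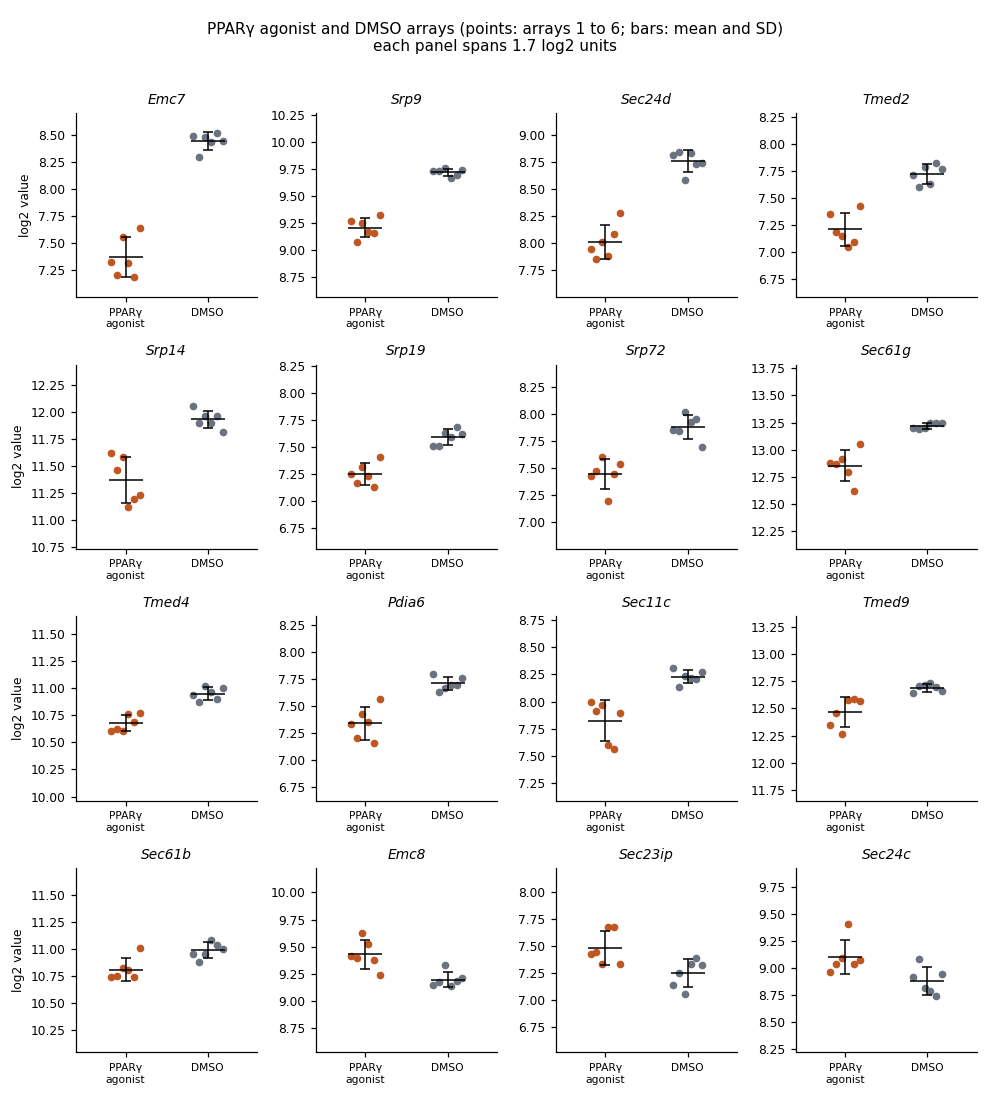
Deposited log2 values in the 6 PPARγ agonist arrays (left in each panel) and the 6 DMSO arrays (right) of the 13 members that fell and the 3 that rose (Emc8, Sec23ip, Sec24c), with mean and SD; each panel spans 1.7 log2 units. Emc7 shows the widest gap, with 7.18 to 7.63 in PPARγ agonist arrays and 8.29 to 8.52 in DMSO arrays.

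In the signal peptidase 1 of 4 genes passed in opposite directions with the agonists. Sec11c, 1 of its pair of catalytic subunits, read 8.54 to 8.73 (median 8.70) in PPARδ agonist arrays and 8.30 to 8.48 (median 8.39) in DMSO arrays, a log2 fold change of 0.26 (adjusted p = 0.0012, standard error 0.046). In the PPARγ set it read 7.559 to 7.996 (median 7.91) in agonist arrays and 8.14 to 8.31 (median 8.22) in DMSO arrays (log2 fold change -0.41, adjusted p = 8.9e-04). Neither comparison had an overlap. The rise was alike in replicates 1 to 3 and 4 to 6 of the PPARδ agonist (0.26 and 0.26), while the fall differed by more than 1.5 times between those of the PPARγ agonist (-0.27 and -0.55). The other catalytic subunit, Sec11a, did not pass with either agonist (log2 fold change -0.030, adjusted p = 0.63 with the PPARδ agonist and log2 fold change -0.056, adjusted p = 0.37 with the PPARγ agonist).

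Spcs3, an accessory subunit whose yeast counterpart is essential, fell with the PPARδ agonist, with 9.58 to 9.78 (median 9.68) in agonist arrays and 9.74 to 9.87 (median 9.80) in DMSO arrays (log2 fold change -0.14, adjusted p = 0.038). The groups overlapped, and the call was kept in 5 of the 12 fits that left out an array, those without agonist replicate 1, 4 or 6 or DMSO replicate 2 or 6 (adjusted p = 0.019 to 0.049). In the other 7 fits the adjusted p reached 0.083. Replicates 1 to 3 gave -0.19 and replicates 4 to 6 gave -0.086. With the PPARγ agonist Spcs3 stood at 0.094 (adjusted p = 0.29). Spcs1, a small accessory subunit, gave -0.0087 (adjusted p = 0.94) with the PPARδ agonist and -0.11 (adjusted p = 0.35) with the PPARγ agonist.

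Of the oligosaccharyl transferase the symbol rule takes only Ddost, Rpn1 and Rpn2. Its alternative catalytic subunits Stt3a and Stt3b are given with the other pathway genes. Ddost, Rpn1 and Rpn2 support the catalytic subunit in the transfer of sugar chains to asparagines. Their log2 fold changes were -0.048 to -0.0045 with the PPARδ agonist and -0.016 to 0.012 with the PPARγ agonist. None passed in either comparison, and the Rpn1 probe lies near the bottom of the scale, where changes are compressed. Rpn2, for example, read 13.69 to 13.90 (median 13.84) in PPARδ agonist arrays and 13.83 to 13.97 (median 13.86) in DMSO arrays.

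Among the disulfide isomerases, Pdia6 fell with the PPARγ agonist, with 7.16 to 7.57 (median 7.34) in agonist arrays and 7.63 to 7.80 (median 7.70) in DMSO arrays (log2 fold change -0.37, adjusted p = 4.8e-04). Pdia6 reduces and rearranges disulfides of unfolded proteins. The arrays did not overlap, and the change was similar in replicates 1 to 3 and 4 to 6 (-0.38 and -0.36). Its second, dimmer probe did not pass (log2 fold change 0.072, adjusted p = 0.24). Pdia3, which works on glycoproteins held by calnexin and calreticulin, Pdia4 and Pdia5 did not pass with the PPARγ agonist, at 0.11, 0.033 and -0.076.

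No isomerase passed with the PPARδ agonist on the probe used, though 2 came close, and Pdia5 was called on another probe. Pdia3 read 12.02 to 12.48 (median 12.39) in PPARδ agonist arrays and 12.43 to 12.60 (median 12.51) in DMSO arrays (log2 fold change -0.20, adjusted p = 0.053). Its agonist replicates 5 and 6 were the lowest. Pdia4 read 9.78 to 10.16 (median 10.08) in PPARδ agonist arrays and 10.13 to 10.38 (median 10.19) in DMSO arrays (log2 fold change -0.17, adjusted p = 0.054), with agonist replicate 2 well below the rest.

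**Figure D3:**
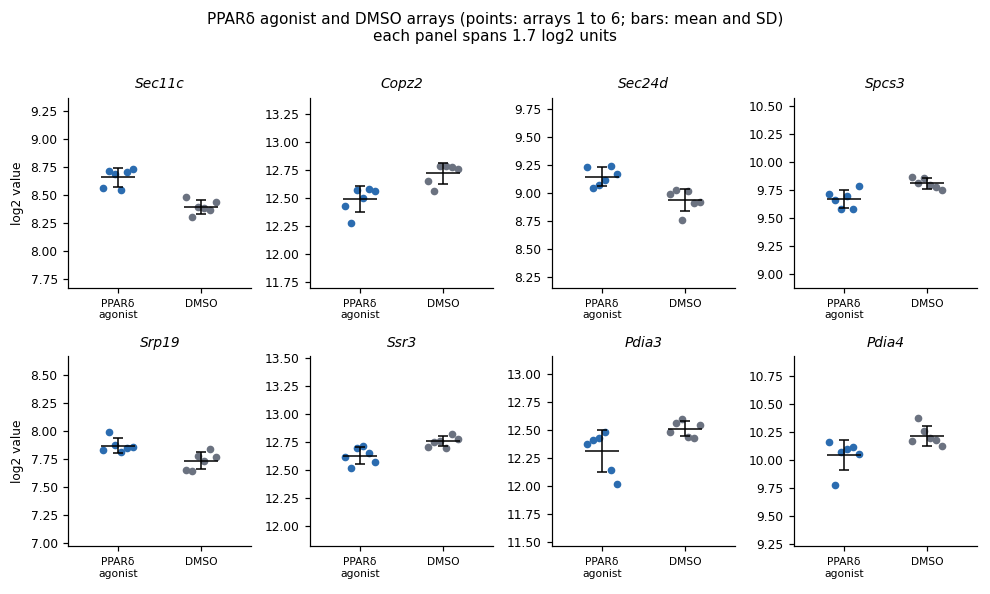
Deposited log2 values in the 6 PPARδ agonist arrays (left in each panel) and the 6 DMSO arrays (right) of the 5 members that passed the test and the 3 next in p (Ssr3, Pdia3, Pdia4), with mean and SD; each panel spans 1.7 log2 units. The groups of Sec11c and Sec24d do not overlap.

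In the COPII coat the cargo-binding Sec24 paralogs did not move together. Sec24d read 7.86 to 8.28 (median 7.98) in PPARγ agonist arrays and 8.59 to 8.85 (median 8.78) in DMSO arrays, a log2 fold change of -0.75 (adjusted p = 1.9e-06, standard error 0.070). All agonist arrays lay below the DMSO arrays, with replicate 6 the nearest to them. Sec24c, in contrast, rose with the PPARγ agonist, with 8.96 to 9.40 (median 9.06) in agonist arrays and 8.74 to 9.08 (median 8.87) in DMSO arrays (log2 fold change 0.22, adjusted p = 0.040). Agonist replicate 4 stood above the other arrays of Sec24c, and replicates 1 to 3 gave a change of 0.095 where replicates 4 to 6 gave 0.35. The call for Sec24c was kept only without agonist replicate 1, 5 or 6 or DMSO replicate 2 (adjusted p = 0.018 to 0.045), and in the other 8 fits that left out an array the adjusted p reached 0.094. Sec24b did not pass (log2 fold change 0.12, adjusted p = 0.16).

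Sec24d also passed with the PPARδ agonist, in the other direction. It read 9.04 to 9.24 (median 9.14) in PPARδ agonist arrays and 8.76 to 9.03 (median 8.96) in DMSO arrays (log2 fold change 0.21, adjusted p = 0.011). The groups did not overlap, though agonist replicate 2 lay just above the highest DMSO array. The other COPII members, Sec24c and Sec24b included, did not pass with the PPARδ agonist. The lowest of them was Sec31a of the outer coat (log2 fold change -0.12, adjusted p = 0.12).

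Sec23ip, which binds the coat subunit Sec23, rose with the PPARγ agonist, with 7.34 to 7.68 (median 7.43) in agonist arrays and 7.06 to 7.39 (median 7.29) in DMSO arrays (log2 fold change 0.23, adjusted p = 0.033). The groups overlapped, and the call was lost without agonist replicate 4 or 5 or DMSO replicate 1, 2 or 3 (adjusted p = 0.052 to 0.075). Sec16a, the scaffold of ER exit sites, stood at 0.13 (adjusted p = 0.093). Sec13, Sec16b, Sec23a and Sec31a lay between -0.10 and 0.049 and did not pass.

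The p24 proteins are small membrane proteins that gather cargo, among it proteins with a lipid anchor, into vesicles between ER and Golgi. Of the 6 measured, 3 fell with the PPARγ agonist, where 12.8% of all genes fell. Tmed2, a partner of Tmed10 in the p24 complex, read 7.05 to 7.43 (median 7.17) in PPARγ agonist arrays and 7.60 to 7.83 (median 7.74) in DMSO arrays (log2 fold change -0.51, adjusted p = 4.1e-05), with every agonist array below the DMSO arrays. Tmed9 had 12.26 to 12.59 (median 12.51) in PPARγ agonist arrays and 12.64 to 12.74 (median 12.70) in DMSO arrays (log2 fold change -0.23, adjusted p = 0.010), and the arrays did not overlap. For Tmed9, replicates 1 to 3 gave -0.33 and replicates 4 to 6 gave -0.12 on the log2 scale, and its dimmer probe gave -0.21 (adjusted p = 0.052). Tmed4 read 10.61 to 10.77 (median 10.66) in PPARγ agonist arrays and 10.87 to 11.02 (median 10.96) in DMSO arrays (log2 fold change -0.27, adjusted p = 3.7e-04) on its brightest probe. The other 3 probes of Tmed4, all much dimmer, gave 0.057, -0.012 and 0.10, none past the threshold, and on the mean of all its probes Tmed4 did not pass (log2 fold change -0.031, adjusted p = 0.76). Tmed10 (log2 fold change -0.062, adjusted p = 0.50), Tmed3 (log2 fold change -0.0017, adjusted p = 0.98) and Tmed8 (log2 fold change 0.10, adjusted p = 0.12) did not pass on the probes used, though Tmed8 was called on another probe.

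None of the p24 genes passed with the PPARδ agonist on the probe used. Tmed2 stood at 0.11 (adjusted p = 0.12) and Tmed10 at -0.13 (adjusted p = 0.11). For Tmed4 the picture by probe was turned round, since the brightest probe gave -0.12 (adjusted p = 0.097) and the other 3 fell, with log2 fold changes of -0.22 (adjusted p = 0.010), -0.22 (adjusted p = 0.015) and -0.18 (adjusted p = 0.021).

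Of the 7 measured Cop genes of the COPI coat none passed with the PPARγ agonist, while Arcn1, a coat subunit outside the symbol rule, fell and is described with the coat partners. Copg1 had the widest spread, with 9.59 to 10.32 (median 9.81) in agonist arrays and 9.49 to 9.98 (median 9.67) in DMSO arrays (log2 fold change 0.21, adjusted p = 0.20), and it differed between replicates 1 to 3 (-0.032) and 4 to 6 (0.44). The other 6 subunits measured lay between -0.10 (Copz2) and 0.10 (Copz1). With the PPARδ agonist Copz2, the second form of the ζ subunit, fell, with 12.28 to 12.58 (median 12.53) in agonist arrays and 12.56 to 12.79 (median 12.77) in DMSO arrays (log2 fold change -0.24, adjusted p = 0.0090). The groups overlapped only around the lowest DMSO array, and the call was kept whichever array was left out. The second brightest of its 4 probes fell too (log2 fold change -0.16, adjusted p = 0.011), and the remaining pair gave 0.0039 and -0.099, neither past the threshold. Copz1, the other form of this subunit, stood at 0.024 (adjusted p = 0.75).

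The Sec22 genes did not pass in either comparison. Sec22b, the SNARE that acts between ER and Golgi, had log2 fold changes of 0.079 (adjusted p = 0.17) with the PPARδ agonist and 0.029 (adjusted p = 0.67) with the PPARγ agonist. Sec22a and Sec22c stood at -0.091 and -0.10 with the PPARδ agonist and at -0.15 and 0.0020 with the PPARγ agonist. Sec14l1 did not pass on the probe used (log2 fold change -0.13, adjusted p = 0.095 with the PPARδ agonist and log2 fold change -0.025, adjusted p = 0.79 with the PPARγ agonist), although with the PPARγ agonist its 2 other probes fell, with log2 fold changes of -0.15 (adjusted p = 0.037) and -0.23 (adjusted p = 0.017).

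How far the calls rest on the choice of probe was read from all 101 probes of the members. With the PPARγ agonist 6 of these rose and 18 fell, and with the PPARδ agonist 5 of 99 rose and 11 fell. Shares over all probes, and like counts for other genes with several probes, were not computed. The counts in this paragraph are therefore no result about the members as a set. Of the 16 members called with the PPARγ agonist, 11 have 1 probe only, among them Emc7, Sec24d, Tmed2, Sec11c, Sec61g and the SRP genes, so their calls could not be set against another probe. In the PPARδ set 7 members were called on another probe than the one used (Copg1, Emc3, Pdia5, Sec63, Spcs1, Tmed3 and Tmed4), and in the PPARγ set 5 (Emc10, Emc3, Emc4, Sec14l1 and Tmed8). No member had probes called in opposite directions within a comparison. All probes of a gene had the same sign in 14 of 27 members with the PPARδ agonist and in 17 of 28 with the PPARγ agonist. Which transcripts the probes match was not examined.

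**Figure D4:**
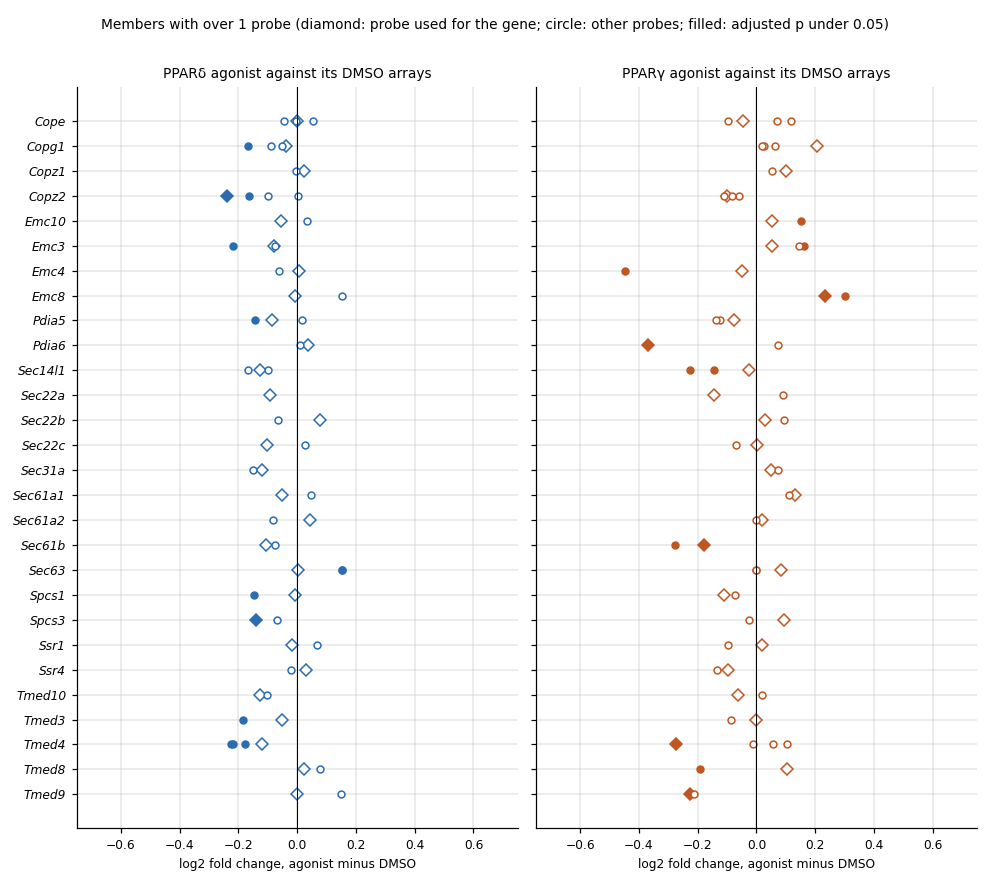
Log2 fold change of each probe of the members with over 1 probe, for the PPARδ agonist (left) and the PPARγ agonist (right); diamonds mark the probe used for the gene and filled symbols passed the test. Emc8 and Sec61b are filled on each of their probes with the PPARγ agonist, and Tmed4 on its diamond alone.

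The responses to the agonists were compared directly as PPARδ minus PPARγ, after the DMSO mean of each set had been subtracted from its treated arrays. This test does not include the spread of the controls, and the labelled doses differ. Of the 60 members measured in both sets, 14 responded more positively to the PPARδ than to the PPARγ agonist (23.3%), where 13.8% of all genes did, and 4 less (6.67%), where 14.0% of all genes did. The largest differences were those of Emc7, at 1.17 (adjusted p = 1.2e-07), and Sec24d, at 0.96 (adjusted p = 1.1e-07). Response values of Sec24d ran from 0.11 to 0.30 with the PPARδ agonist and from -0.90 to -0.48 with the PPARγ agonist. For Sec11c they ran from 0.15 to 0.33 with the PPARδ agonist and from -0.67 to -0.23 with the PPARγ agonist, a difference of 0.67 (adjusted p = 7.9e-06). Sec24d, Sec11c and Srp19 (difference 0.48, adjusted p = 4.1e-06) were above zero in all 6 PPARδ agonist arrays and below zero in all 6 PPARγ agonist arrays.

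Srp14 (difference 0.67, adjusted p = 2.1e-05) and Tmed2 (difference 0.62, adjusted p = 2.5e-06) also had responses above zero in every PPARδ agonist array and below zero in every PPARγ agonist array, although neither passed the test against DMSO with the PPARδ agonist. Srp72, Srp9, Pdia6 and Sec61g differed by 0.54, 0.48, 0.40 and 0.34, with PPARδ responses on either side of zero and PPARγ responses all below it. Tmed9 differed by 0.23, and Tmed4, Copb2 and Ssr4, with 0.15, 0.15 and 0.13, passed narrowly (adjusted p = 0.038, 0.046 and 0.037). Lower with the PPARδ than with the PPARγ agonist were Pdia3 (difference -0.31, adjusted p = 0.014), Emc8 (difference -0.24, adjusted p = 0.0082), Spcs3 (difference -0.23, adjusted p = 0.016) and Pdia4 (difference -0.20, adjusted p = 0.038). The calls of Copb2, Pdia4, Ssr4 and Tmed4 were lost in 9, 7, 8 and 8 of the 18 fits that left out an array, with adjusted p up to 0.10, 0.081, 0.080 and 0.080. On the mean of all its probes Tmed4 turned to -0.15 (adjusted p = 0.11). The median difference of the members was -0.023, against -0.051 over all genes.

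**Figure D5:**
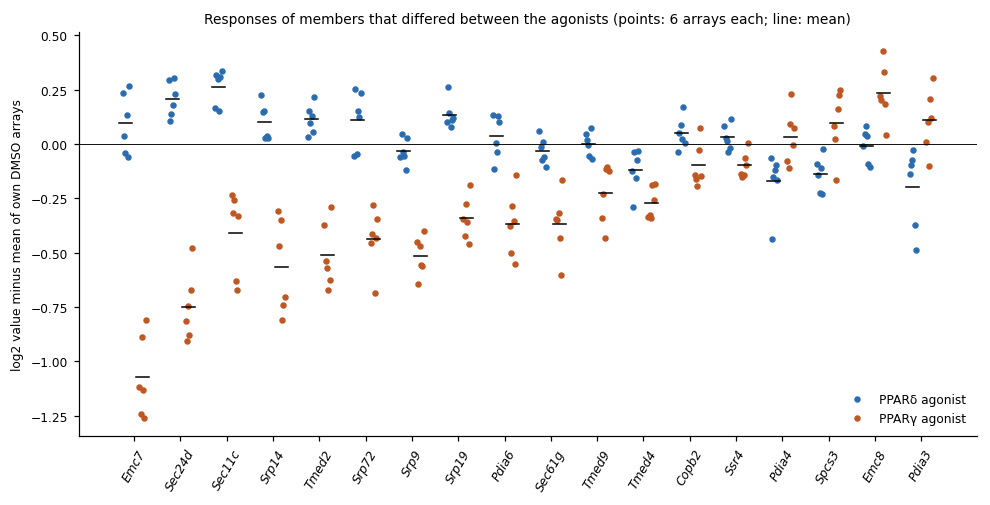
Log2 value minus the mean of the agonist's own DMSO arrays, for each of the 6 PPARδ agonist arrays (left of each pair) and 6 PPARγ agonist arrays (right), with the mean as a line, in the 18 members whose responses differed. The points of the first 11 genes do not overlap, from Emc7, with a difference of 1.17, to Tmed9, with 0.23. The genes were drawn because they passed the test, so separation is in part built in. The share of all genes without overlap was not computed for this comparison.

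Genes outside the symbol rule that act on the same route were read from lists by function, whose counts stand beside the shares over all genes of 12.8% fallen and 10.2% risen with the PPARγ agonist and 8.69% fallen and 8.26% risen with the PPARδ agonist. The lists are short, and their counts were not tested against these shares. Among the cargo receptors and ER-Golgi SNAREs, 3 of 20 fell and 1 rose with the PPARγ agonist. Gosr2, a SNARE of the Golgi, read 9.44 to 9.95 (median 9.74) in PPARγ agonist arrays and 10.28 to 10.50 (median 10.39) in DMSO arrays (log2 fold change -0.68, adjusted p = 6.8e-06), and Ergic2 of the intermediate compartment read 8.67 to 8.96 (median 8.77) in PPARγ agonist arrays and 9.18 to 9.42 (median 9.28) in DMSO arrays (log2 fold change -0.49, adjusted p = 7.8e-06). Neither gene had overlapping arrays. The cargo receptor Lman1 fell (log2 fold change -0.21, adjusted p = 0.010) and the Golgi matrix protein Golga2 rose (log2 fold change 0.24, adjusted p = 0.0022).

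Of 12 partners of the COPII and COPI coats, 2 fell and 4 rose with the PPARγ agonist. Arcn1, the δ subunit of the COPI coat, was the one that fell most, with 6.40 to 6.58 (median 6.49) in PPARγ agonist arrays and 6.72 to 6.97 (median 6.84) in DMSO arrays (log2 fold change -0.33, adjusted p = 1.5e-04), values near the lower end of the range. Preb, the exchange factor that starts COPII assembly, rose (log2 fold change 0.36, adjusted p = 3.6e-04), as did Sar1a, the GTPase it loads (log2 fold change 0.23, adjusted p = 0.012). Arfgap2, which acts on the COPI GTPase Arf, rose as well (log2 fold change 0.19, adjusted p = 0.014).

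Of 13 measured ER chaperones and thiol enzymes, 2 fell and none rose with the PPARγ agonist. Hspa5, the gene of BiP, had no values in the PPARγ set and is not among them. Txndc12, a thioredoxin-like protein of the lumen, read 8.44 to 9.01 (median 8.84) in PPARγ agonist arrays and 9.53 to 9.87 (median 9.74) in DMSO arrays (log2 fold change -0.92, adjusted p = 1.9e-06), without overlap, and Hsp90b1, the ER form of Hsp90, fell (log2 fold change -0.24, adjusted p = 0.039). In the unfolded protein response, Ern1, the sensor that splices Xbp1 mRNA, fell (log2 fold change -0.51, adjusted p = 4.0e-06) and Xbp1 rose (log2 fold change 0.16, adjusted p = 0.0087), and 7 of 9 did not pass. Stt3a, a catalytic subunit of the oligosaccharyl transferase, fell (log2 fold change -0.25, adjusted p = 0.0037), the only one of 11 genes of N-glycosylation to pass. The other catalytic subunit, Stt3b, did not pass (log2 fold change -0.13, adjusted p = 0.16). Of 8 genes of ER-associated degradation Ube2j1 fell (log2 fold change -0.26, adjusted p = 0.0040), and 0 of 10 genes of the SRP receptor and translocon partners passed in limma (1 rise and 3 falls at an unadjusted p).

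Genes of these lists passed in both directions with the PPARδ agonist. Among 20 cargo receptors and SNAREs, 5 fell and 1 rose. Bet1, an ER-Golgi SNARE, rose, with 8.51 to 8.81 (median 8.69) in PPARδ agonist arrays and 7.95 to 8.46 (median 8.33) in DMSO arrays (log2 fold change 0.42, adjusted p = 0.0026). Kdelr2, which returns escaped chaperones to the ER (log2 fold change -0.29, adjusted p = 0.0010), the SNARE Ykt6 (log2 fold change -0.25, adjusted p = 0.0048) and the tether Uso1 (log2 fold change -0.17, adjusted p = 0.018) fell without overlap. Of 15 chaperones and thiol enzymes 3 rose and 2 fell. Hspa5 (BiP, log2 fold change 0.19, adjusted p = 0.0089) and Txndc12 (log2 fold change 0.20, adjusted p = 0.016) rose, whereas Sdf2l1 (log2 fold change -0.24, adjusted p = 0.0037) and Dnajc10 (log2 fold change -0.20, adjusted p = 0.010), a pair of BiP partners, fell. The Hspa5 probe read 6.87 to 7.05 in PPARδ agonist arrays and 6.68 to 6.90 in DMSO arrays, near the lower end of the range. Of 9 genes of the unfolded protein response, Atf4 rose (log2 fold change 0.24, adjusted p = 0.0051) and its targets Ddit3 (log2 fold change -0.34, adjusted p = 0.0073) and Trib3 (log2 fold change -0.41, adjusted p = 0.014) fell. Mogs rose (log2 fold change 0.26, adjusted p = 0.0021) and Alg5 fell (log2 fold change -0.18, adjusted p = 0.018) among 11 genes of N-glycosylation, and of 12 coat partners Preb (log2 fold change 0.21, adjusted p = 0.0075) and Gbf1 (log2 fold change 0.20, adjusted p = 0.030) rose and Tfg fell (log2 fold change -0.14, adjusted p = 0.019). Of 11 genes of the SRP receptor and translocon partners Hspa5, which is also on this list, was the 1 that rose, and 0 of 8 genes of ER-associated degradation passed in limma (1 rise and 1 fall at an unadjusted p).

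Markers of the cell types in the cultures were set beside these results. Of the 10 measured adipocyte markers, Fabp4 alone passed with the PPARγ agonist, but 5 rose and 0 fell at an unadjusted p, and the median change was 0.33. Cidec, a lipid droplet protein, and the lipase Pnpla2 had log2 fold changes of 1.32 (adjusted p = 0.073) and 0.82 (adjusted p = 0.13) with the PPARγ agonist. In the PPARδ set Cidec rose (0.81, adjusted p = 0.0496), and 7 of 8 markers did not pass. In the PPARγ set the mean of 11 measured of 12 preadipocyte and fibroblast markers was 10.37 to 10.72 in agonist arrays and 10.55 to 10.71 in DMSO arrays. The collagen genes Col3a1 and Col1a2, whose products are cargo of this route, fell (log2 fold change -1.16, adjusted p = 4.4e-07 and log2 fold change -0.71, adjusted p = 4.1e-05). The rest of that list did not follow them, since 7 of its 11 genes lay above 0 with a median of 0.092, among them Col1a1 at 0.20 (adjusted p = 0.25) and Vim at 0.20 (adjusted p = 0.079). In the PPARδ set that mean was 10.76 to 10.88 in agonist arrays and 10.71 to 10.86 in DMSO arrays, where Col1a2 rose (log2 fold change 0.23, adjusted p = 0.024) and the transcription factor gene Gata2 fell (log2 fold change -0.30, adjusted p = 2.8e-04). The part of these markers in the results on the members was not tested.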

How the data were processed

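Gene expression had been measured in 3T3-L1 adipocytes treated with GW610742, GW347845 or DMSO, with 6 arrays each. Per the labels and methods, the authors used lumi to stabilize the variance of the bead intensities, and then quantile normalized the arrays of each agonist together with DMSO. The deposited log2 values, 13964 probes by 24 columns, were used as they are, and the bead depth behind them is unknown. The DMSO columns of the 2 sets hold the same hybridizations normalized 2 times (deviations correlate at 0.9987 or more for the same number). Of the probes, 12157 carry 1 gene symbol, 4 several and 1803 none. Only the first kind was used for genes.

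Agonist and DMSO arrays were compared in R 4.3.3 with limma 3.58.1 (moderated test, Benjamini-Hochberg over all 13718 or 13755 probes, threshold 0.05). Responses were compared over 13509 probes, each treated array being set against the mean of its DMSO arrays. Scripts were tested on simulated data. Promoters came from RefSeq and figures from matplotlib 3.10.9 in Python 3.11.15.

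The members and the lists were chosen with earlier results of these data known. Named are, for each comparison, up to 4 called members of each machine, by adjusted p, and up to 2 others with the largest change, the 10 largest differences between the agonists, Sec11c, which the paper names, and up to 4 called genes of each other list, again by adjusted p. Adipoq, Emc9, Copg1 and the promoters shown were chosen after their values were seen. Alternatives were an unadjusted p, cyclic loess, median centring, array weights, a robust prior with a trend, leaving out dim probes (lowest 0.25), the mean of all probes, the replicate number as a block and leaving out each array. Replicates 1 to 3 and 4 to 6 were fitted apart as an addition made after the data were seen. Other data of the study were not analysed here.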

Additional observations from a re-analysis of the deposited data

Results flagged for a closer look

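Among the 22 members called in a comparison, 66 groups of 6 arrays were searched for an array far from the rest, of which chance alone flags about 1 in 20 groups, and 4 were found. Pdia4 read 9.78 in PPARδ agonist replicate 2, where the nearest array read 10.06. Srp19 read 7.99 in PPARδ agonist replicate 2, with the nearest array at 7.87. Sec24c read 9.40 in PPARγ agonist replicate 4, with the nearest at 9.10, and Sec61b read 11.01 in PPARγ agonist replicate 6, with the nearest at 10.83. The calls of Srp19 and Sec24c against DMSO were lost without those arrays (adjusted p = 0.11 and 0.066), and that of Sec61b was kept (adjusted p = 0.0025). Without PPARδ agonist replicate 2 the difference of Pdia4 between the agonists was -0.15 and no longer passed (adjusted p = 0.075).

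The responses of 18 members differed between the agonists, tested as PPARδ minus PPARγ after subtraction of the DMSO mean. Higher with the PPARδ agonist were Emc7 (1.17), Sec24d (0.96), Sec11c (0.67), Srp14 (0.67), Tmed2 (0.62), Srp72 (0.54), Srp9 (0.48), Srp19 (0.48), Pdia6 (0.40), Sec61g (0.34), Tmed9 (0.23), Tmed4 (0.15), Copb2 (0.15) and Ssr4 (0.13). Lower were Pdia3 (-0.31), Emc8 (-0.24), Spcs3 (-0.23) and Pdia4 (-0.20). For Copb2, Pdia3, Pdia4 and Ssr4 neither agonist alone passed the test against DMSO.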

How the results depend on the processing

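When each array was left out in turn, 12 to 14 members fell and 1 to 4 rose with the PPARγ agonist, 1 to 4 fell and 2 to 3 rose with the PPARδ agonist, and 11 to 14 were higher and 3 to 7 lower with the PPARδ than with the PPARγ agonist. Only 1 rose with the PPARγ agonist without its replicate 4 or without DMSO replicate 1 or 3. With the PPARδ agonist 4 fell without its replicate 4, and 1 fell without its replicate 5 or without DMSO replicate 1, 4 or 5. Without PPARγ agonist replicate 2 or 3, 7 responses were lower. The 2 falls with the PPARδ agonist became 1 with cyclic loess, 4 with the robust prior, 5 without dim probes and 8 when the probes of each gene were averaged, and the 4 lower responses then became 7. At an unadjusted p, 5 members rose (14.7% of all genes) and 10 fell (17.2%) with the PPARδ agonist, 6 rose with the PPARγ agonist (19.0%), and 13 responses were lower. For the responses between the agonists, the share of all genes was computed in the main fit only (13.8% higher, 14.0% lower). Their counts under other settings are therefore no result about the members. The same holds for the counts with an array left out, with cyclic loess and with the replicate block. With only replicates 1 to 3, 0 rose and 0 fell with the PPARδ agonist (limma, 3 and 4 at an unadjusted p) and 5 rose with the PPARγ agonist, and with only replicates 4 to 6, 7 rose with the PPARγ agonist. The cause of these moves was not tested, beyond the fewer arrays of the splits. The difference between the agonists for Tmed4 turned to -0.15 (adjusted p = 0.11) on the mean of all its probes, and no other member call recomputed under these settings changed sign. Median centring changes nothing, since quantile normalized arrays share their values.

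The replicate numbers were not taken as pairs, because the labels tie them to nothing shared and not every pair correlated above 0.1. In the PPARγ set, however, the mean of the adipocyte markers separated replicates 1 to 3 from 4 to 6 in agonist and DMSO arrays alike. What arrays of the same number share was not tested. Deviations of agonist and DMSO arrays of the same number correlated at -0.23 to 0.29 in the PPARδ set and -0.014 to 0.54 in the PPARγ set, with 3 of 6 and 5 of 6 pairs above 0.1, and 1 of 6 and 3 of 6 correlated best with their own number. With the replicate block, 2 members rose and 2 fell with the PPARδ agonist, 3 rose and 13 fell with the PPARγ agonist, and 13 responses were higher and 4 lower between the agonists. Srp19 and Spcs3 in the PPARδ set and Ssr4 between the agonists no longer passed with it (adjusted p = 0.075, 0.061 and 0.057). The probes of Arcn1, Fabp4, Hspa5, Rpn1, Sec23a, Srp54a and Ube2j1 lie near the bottom of the scale, where changes are compressed. Among the fallen members, Emc7, Pdia6, Sec11c, Srp19, Srp72 and Tmed2 read below the PPARγ set's median value (8.16) in every PPARγ agonist array. Their changes may be compressed as well.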

Other observations

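Other genes of the secretory route also responded differently to the agonists, tested as PPARδ minus PPARγ in limma, where 13.8% of all genes were higher and 14.0% lower with the PPARδ agonist. Of 13 ER chaperones and thiol enzymes, 3 were higher and 2 lower with the PPARδ agonist, led by Txndc12, with a difference of 1.11 on the log2 scale (adjusted p = 1.22e-07). Dnajb9, a BiP partner induced in ER stress, differed by 0.60 (adjusted p = 0.0057) and Sdf2l1 by -0.30 (adjusted p = 0.00018). Of 20 cargo receptors and SNAREs, 4 were higher and 6 lower, with Gosr2 at 0.72 (adjusted p = 2.279e-06), Ergic2 at 0.47 (adjusted p = 4.135e-06) and the tether Uso1 at -0.27 (adjusted p = 0.00086). Ern1 (0.53, adjusted p = 4.95e-07) and Atf4 (0.36, adjusted p = 4.187e-05) were higher and Mbtps1, the protease that cleaves Atf6, was lower (-0.35, adjusted p = 0.0058), among 9 genes of the unfolded protein response.

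In the list of the SRP receptor and translocon partners, Srpr, the receptor subunit that binds the signal recognition particle, was higher with the PPARδ agonist (0.24, adjusted p = 0.0063), and 2 of 10 genes of that list passed. Among 12 coat partners Arcn1 was higher (0.40, adjusted p = 1.146e-05), and Sar1a (-0.33, adjusted p = 0.00057), Arfgap2 and Tfg were lower. Of the collagens, Col3a1 differed by 1.33 (adjusted p = 7.366e-08) and Col1a2 by 0.94 (adjusted p = 2.856e-06), while Col1a1 stood at -0.15 (adjusted p = 0.39). On their list of 11 preadipocyte and fibroblast markers 9 lay below 0, with a median of -0.037. This test leaves out the spread of the shared controls.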
